A study of Mus musculus with 28 samples.

Results

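The stroma of the mammary gland was compared between cells that carry GFP and cells that carry tdTomato, in untreated adult female *PdgfrαCre R26mTmG* mice of the C57BL/6 strain. The comparison rests on 8 of the 28 samples of the series, namely the GFP+ and the tdTomato+ stromal cells of each of 4 mice, so that every mouse supplied both sides. In these mice Cre is driven by the *Pdgfra* promoter from development onward. Cells in which Cre was ever active lost tdTomato and make GFP, as do their descendants, and cells that never had it keep tdTomato, so the colour records history and not the present level of *Pdgfra*. Glands of individual mice were digested to single cells, and stromal cells were sorted as negative for CD31, CD45 and Ter119 (endothelial, hematopoietic and red blood cell exclusion) and for the epithelial gates of EpCAM and CD49f. Both subsets share the genotype, the digestion and the lack of hormone treatment. The remaining 20 samples were luminal cells of the same mice and stromal and luminal cells of 3 mice treated with estrogen plus progesterone (E+P), whose 6 stromal samples enter here only to share the estimate of spread and in the last comparison.

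*Pdgfra* encodes a receptor tyrosine kinase for platelet-derived growth factors and marks fibroblasts and adipocyte progenitors in many tissues. Its relative *Pdgfrb* is typical of pericytes and vascular smooth muscle, the contractile cells that wrap capillaries and larger vessels and that depend on Notch signaling from the endothelium. A stromal gate set by exclusion also admits cells that none of these antibodies stain, such as pericytes, smooth muscle, Schwann cells and muscle progenitors. Throughout, values are CPM (read counts scaled to a common library size with the TMM factors of edgeR) for mice 1 to 4 in that order, or the mean ± SD over n = 4 mice. Where means are set against each other, the GFP+ value comes before the tdTomato+ value. The log2 fold change (log2 FC) is GFP+ minus tdTomato+, so positive values are higher in GFP+ cells, and a gene was called at an edgeR adjusted p under 0.01. In bulk samples such as these, fewer cells of a type and less RNA per cell cannot be told apart.

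The libraries held 10231034 to 18904196 counted reads, at which 3 counts amount to 0.159 to 0.293 CPM. GFP+ libraries were more alike than tdTomato+ libraries, with a Pearson's r of log2 CPM across genes of 0.961 to 0.967 within GFP+ pairs, 0.909 to 0.942 within tdTomato+ pairs and 0.797 to 0.864 between subsets. The coefficient of biological variation was 0.265 in GFP+ and 0.447 in tdTomato+ cells. Transcripts of the mitochondrial genome took 4.44% to 4.92% of reads in GFP+ and 6.70% to 10.8% in tdTomato+ libraries, and small and ribosomal RNAs 6.64% to 9.06% and 10.9% to 18.02%. These shares do not overlap between the subsets, and their part in the results below was not tested.

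Of 17783 genes tested, 4789 (26.9%) were called between the subsets, 2369 (13.3%) higher and 2420 (13.6%) lower in GFP+ cells. The counts of every gene list below are to be read beside these shares. The median log2 fold change of all genes tested was 0.01. Large differences were mostly toward tdTomato+ cells: 642 genes were higher in GFP+ cells by more than 2 on the log2 scale and 1171 were lower by as much, and past 4 the numbers were 91 and 603. Of the 4789 called genes, 4740 lay on the same side in 4 of 4 mice. The 4 GFP+ libraries did not overlap the 4 tdTomato+ libraries in 4387 of the 4789, and in 6267 (35.2%) of the 17783 genes tested. The share on the same side was not determined over all genes tested. Calls were made from these same libraries, so neither count is separate support for them. In the plot of level against difference, circled genes higher in GFP+ cells ranged widely in level, with *Pdgfra* at 1813 and *Fgf10* at 69.98 CPM in GFP+ cells. The lowest fold changes among all circled genes were those of the muscle lineage genes *Tnnc2*, *Myf5* and *Acta1*.

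**Figure D1:**
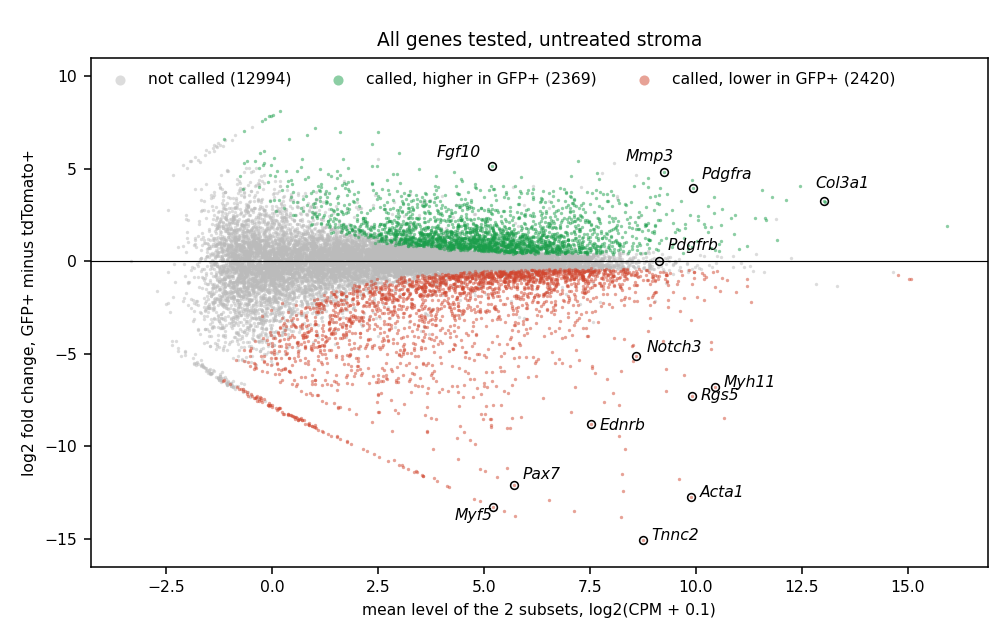
Each point is a gene tested, with the mean level of the subsets on the x axis (log2 of CPM + 0.1) and the log2 fold change of GFP+ minus tdTomato+ untreated stroma on the y axis. Green points (2369) were called higher and red points (2420) called lower in GFP+ cells, with *Fgf10* at 5.13, *Pdgfrb* at 0.01 and *Rgs5* at −7.28 among the circled genes.

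*Pdgfra* (ENSMUSG00000029231.15, chr5:75152292-75198215), whose promoter drives the Cre, was measured at 1772, 1628, 1883 and 1969 CPM in GFP+ cells and 201, 39.4, 245 and 85.98 CPM in tdTomato+ cells. The ranges do not overlap, yet tdTomato+ cells were not devoid of the transcript, and mouse 2 held least of it. The log2 fold change was 3.97 (SE 0.53, edgeR adjusted p = 0.0013), or 15.7-fold. *Pdgfrb* stood at 533, 474, 596 and 628 CPM in GFP+ and 420.5, 611, 503 and 714 CPM in tdTomato+ cells, with overlapping ranges and a log2 fold change of 0.01 (SE 0.13, edgeR adjusted p = 0.97).

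Of the 7 PDGF receptors and ligands, 2 were called higher and 2 lower in GFP+ cells. *Pdgfa*, a ligand of PDGFRα, was measured at 1.01, 1.04, 1.49 and 0.571 CPM in GFP+ cells and 78.5, 65.2, 66.1 and 49.5 CPM in tdTomato+ cells, a log2 fold change of −5.96 (SE 0.23, edgeR adjusted p = 2.2e-09). The receptor and this ligand were higher on opposite sides of the sort. *Pdgfb*, a ligand of both receptors, was also lower in GFP+ cells (0.173 ± 0.302 against 2.06 ± 1.14 CPM, log2 FC −4.21), although its call was lost when mouse 1, 3 or 4 was left out (edgeR adjusted p up to 0.03). *Pdgfd*, a ligand of PDGFRβ, was higher (50.3 ± 12.02 against 22.05 ± 5.18 CPM, log2 FC 1.19, SE 0.15, edgeR adjusted p = 3.5e-05). *Pdgfc* (9.55 ± 3.16 against 6.81 ± 2.35 CPM, edgeR adjusted p = 0.26) and *Pdgfrl* (10.4 ± 2.22 against 6.07 ± 1.66 CPM, adjusted p = 0.024) did not pass the threshold.

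Fibroblast genes were higher in GFP+ cells. Of 16 fibroblast and mesenchymal progenitor genes, 13 were called higher and 0 lower, with a median log2 fold change of 3.50. *Dcn*, the collagen-binding proteoglycan decorin, was measured at 5567, 6088, 5817 and 4934 CPM in GFP+ and 559, 160.4, 768 and 282 CPM in tdTomato+ cells, without overlap (log2 FC 3.89, SE 0.40, edgeR adjusted p = 1.4e-04). *Lum* (lumican) differed most among the list, at 888 ± 133 against 47.5 ± 35.4 CPM (log2 FC 4.51, SE 0.48, edgeR adjusted p = 3.2e-04). *Serpinf1*, which encodes the anti-angiogenic factor PEDF, was at 876 ± 50.6 against 64.95 ± 41.8 CPM (log2 FC 4.00). The remaining 3 members, *Dpp4*, *Pi16* and *Clec3b*, had differences as large (log2 FC 4.00, 3.41 and log2 FC 3.52) but edgeR adjusted p values of 0.018, 0.017 and 0.017. All 16 were called when the mouse was not used as a block.

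The summed level of the fibroblast list was 61721, 54469, 75151 and 50402 CPM in GFP+ cells and 7854, 3508, 9736 and 4421 CPM in tdTomato+ cells. Within tdTomato+ cells, mice 3 and 1 were high and mice 4 and 2 low, the same order as for *Pdgfra*. Whether the tdTomato+ libraries hold fibroblasts that escaped Cre or cells of the other gate was not tested.

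**Figure D2:**
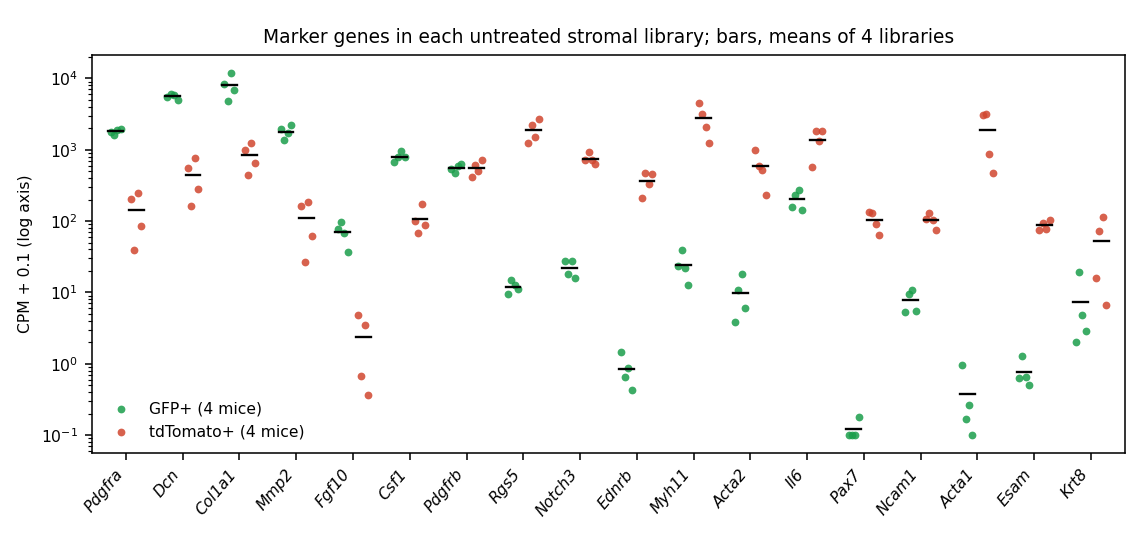
CPM + 0.1 on a log axis for 18 genes, with green points for the 4 GFP+ libraries, red points for the 4 tdTomato+ libraries and black bars for means. The subsets do not overlap for genes from *Pdgfra* to *Csf1* (higher in GFP+) or from *Rgs5* to *Esam* (higher in tdTomato+), whereas *Pdgfrb* (558 ± 68.7 against 562 ± 128 CPM) and *Krt8* overlap.

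Matrix genes followed the same direction. Of 12 fibrillar and associated collagens, 11 were higher in GFP+ cells and 0 lower, with a median of 2.06. The chains of type I collagen, *Col1a1* and *Col1a2*, reached 8039 ± 3009 and 6460.2 ± 1919 CPM in GFP+ cells against 834 ± 357 and 624 ± 314 CPM in tdTomato+ cells (log2 FC 3.30, SE 0.14, edgeR adjusted p = 4.9e-09 for *Col1a1* and log2 FC 3.47 for *Col1a2*). Mouse 3 was highest and mouse 2 lowest for *Col1a1* in both subsets. *Col14a1*, a fibril-associated collagen, had the largest fold change (log2 FC 3.56, SE 0.42, edgeR adjusted p = 4.4e-04), and only *Col12a1* was not called (153 ± 43.3 against 107 ± 15.5 CPM, adjusted p = 0.012).

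Basement membrane genes were divided by chain. Of 15, 11 were higher and 2 lower in GFP+ cells, with a median of 0.82. Nidogen 1 (*Nid1*, log2 FC 2.83, SE 0.17, edgeR adjusted p = 5.7e-08), laminin β1 (*Lamb1*, log2 FC 2.79) and laminin α2 (*Lama2*, log2 FC 2.62), the laminin α chain typical of muscle and mesenchyme, were 7.13, 6.92 and 6.14-fold higher in GFP+ cells. The collagen IV chains *Col4a1* and *Col4a2* differed less, at 3014 ± 364 against 1722 ± 321 CPM and 1649.8 ± 369.7 against 985 ± 173 CPM (log2 FC 0.82 and 0.74). In contrast, *Lama5*, the laminin α chain of vessel walls and epithelia, was measured at 2.63, 10.9, 8.77 and 3.35 CPM in GFP+ and 364, 519, 452 and 209 CPM in tdTomato+ cells (log2 FC −6.03, SE 0.26, edgeR adjusted p = 3.1e-08). *Col4a6* was the other gene called lower (2.25 ± 1.43 against 9.44 ± 4.903 CPM, log2 FC −2.02), with overlapping ranges and its call lost without mouse 1 or 3, edgeR adjusted p up to 0.016.

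Of 11 small leucine-rich proteoglycans, which bind and space collagen fibrils, 8 were higher and 1 lower in GFP+ cells (median 1.75). *Kera* (keratocan) had the largest fold change at a low level (6.48 ± 4.88 against 0.216 ± 0.283 CPM, log2 FC 5.03, SE 0.56, edgeR adjusted p = 3.2e-05). *Fmod* (fibromodulin) was the exception, at 11.2 ± 4.23 CPM in GFP+ and 39.1 ± 9.696 CPM in tdTomato+ cells (log2 FC −1.85, SE 0.28, edgeR adjusted p = 2.7e-04). *Aspn* (73.4 ± 16.4 against 99.6 ± 41.7 CPM) and *Prelp* (271 ± 36.1 against 198 ± 23.95 CPM) did not pass the threshold.

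Among 17 matrix proteases and their inhibitors, 12 were higher and 3 lower in GFP+ cells, with a median of 2.25 (8 higher without mouse 2, 9 or 10 without another mouse). The gelatinase *Mmp2* was measured at 1943, 1365, 1706 and 2196 CPM in GFP+ and 163, 26.9, 184 and 62.3 CPM in tdTomato+ cells (log2 FC 4.38, SE 0.53, edgeR adjusted p = 7.5e-04). Stromelysin *Mmp3* differed by 4.84 (SE 0.93, edgeR adjusted p = 0.0086), a call lost without any of the 4 mice (edgeR adjusted p up to 0.034). *Serpinb2*, which encodes the plasminogen activator inhibitor PAI-2, was at 7.94, 5.401, 40.05 and 7.67 CPM in GFP+ cells, mouse 3 far above the rest, and at 0.312 ± 0.624 CPM in tdTomato+ cells (log2 FC 5.87, SE 0.51, edgeR adjusted p = 1.8e-06). Genes higher in tdTomato+ cells were *Adamts1*, a protease that cleaves large proteoglycans (927 ± 65.6 against 3041 ± 782 CPM, log2 FC −1.68, SE 0.15, edgeR adjusted p = 1.1e-06), *Serpine2* (log2 FC −2.36) and *Timp4* (log2 FC −4.53).

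Subdivisions of the adipogenic lineage gave mixed counts. Of 9 markers of interstitial progenitors, the *Dpp4*-expressing cells held to lie upstream of preadipocytes, 6 were higher and 0 lower in GFP+ cells (median 3.41). This count fell to 3 without mouse 3 and 2 without mouse 4, and was 8 without the mouse as a block. *Pi16* was measured at 526, 518, 495 and 456 CPM in GFP+ and 145, 10.1, 70.1 and 36.2 CPM in tdTomato+ cells and *Dpp4* at 286 ± 53.6 and 24.5 ± 23.2 CPM, neither past the threshold. The ranges did not overlap, but the tdTomato+ mice differed widely, with mouse 2 lowest and mouse 1 highest. *Wnt2*, *Ly6c1* and *Dact2*, an inhibitor of Wnt signaling, were called (log2 FC 3.62, 3.94 and log2 FC 3.61), but each call was lost without mouse 3 or 4 (edgeR adjusted p up to 0.022, 0.029 and 0.033).

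Of 12 genes of committed preadipocytes, 5 were higher and 1 was lower in GFP+ cells (median 0.64). *Lpl*, the lipoprotein lipase that releases fatty acids for uptake, was measured at 1104, 910.1, 1189 and 693 CPM in GFP+ and 141, 72.2, 130.1 and 103 CPM in tdTomato+ cells (log2 FC 3.14, SE 0.15, edgeR adjusted p = 9.4e-09). *Icam1*, a marker of committed preadipocytes, was higher (342 ± 119 against 81.6 ± 23.95 CPM, log2 FC 2.06), as were *Col15a1* (log2 FC 2.76) and *Ggt5* (log2 FC 2.49). The fatty acid carrier *Cd36* went the other way, at 32.7, 39.7, 11.9 and 4.57 CPM in GFP+ and 126, 169.8, 103 and 162 CPM in tdTomato+ cells (log2 FC −2.95, SE 0.56, edgeR adjusted p = 0.0065), with its call lost without mouse 3, edgeR adjusted p up to 0.029. The number lower was then 0, and 2 without mouse 1. *Pparg*, the master regulator of adipogenesis, was at 31.3 ± 6.42 CPM in GFP+ and 40.2 ± 9.61 CPM in tdTomato+ cells, lower in 4 of 4 GFP+ samples but with overlapping ranges and an edgeR adjusted p of 0.081. Of 7 markers of CD142+ stromal cells, described as restraining adipogenesis, 4 were higher and 0 lower, among them *Gdf10* (log2 FC 2.47, SE 0.35, edgeR adjusted p = 6.9e-04) and *F3*, which encodes CD142 (114 ± 38.5 against 56.4 ± 18.2 CPM, log2 FC 1.00). The 8 genes of mature adipocytes summed to 25.3 to 64.7 CPM in GFP+ and 17.9 to 104 CPM in tdTomato+ cells. Of the 4 tested, *Lipe*, which encodes hormone-sensitive lipase, was lower in GFP+ cells (5.21 ± 2.13 against 15.2 ± 5.83 CPM, log2 FC −1.52, SE 0.28, edgeR adjusted p = 8.1e-04) and 0 were higher. *Adipoq* was at 0.413 ± 0.481 against 0.374 ± 0.567 CPM and *Plin1* at 0.8896 ± 1.12 against 2.17 ± 3.04 CPM, without a call.

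Secreted growth factors were divided between the subsets by ligand. Of 11 FGF and HGF ligands and receptors tested, 7 were higher and 2 lower in GFP+ cells (median 1.24). Only 5 were higher without mouse 2, 3 or 4, and 6 without the mouse as a block. *Fgf10*, a mesenchymal ligand required for mammary bud formation, was measured at 78.6, 97.6, 67.3 and 36.4 CPM in GFP+ and 4.79, 0.575, 3.45 and 0.269 CPM in tdTomato+ cells (log2 FC 5.13, SE 0.58, edgeR adjusted p = 3.3e-04). *Fgf2* (log2 FC 1.96), *Fgf7* (log2 FC 2.60, call lost without mouse 4, edgeR adjusted p up to 0.015) and the receptor *Fgfr1* (1182 ± 232 against 507 ± 160.4 CPM, log2 FC 1.27) were also higher in GFP+ cells. *Fgf1* was lower (log2 FC −2.62, SE 0.28, edgeR adjusted p = 8.1e-06). The receptor *Fgfr4* was at 0.135, 0.554, 0.331 and 0.0816 CPM in GFP+ and 137, 115, 84.3 and 65.1 CPM in tdTomato+ cells (log2 FC −8.44, SE 0.34, edgeR adjusted p = 1.2e-08).

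Insulin-like growth factors split in the same manner. *Igf1* was measured at 228, 213, 210.3 and 158 CPM in GFP+ and 37.03, 22.6, 33.5 and 19.1 CPM in tdTomato+ cells (log2 FC 2.88, SE 0.17, edgeR adjusted p = 4.9e-08). The imprinted fetal ligand *Igf2* was at 4.44, 3.32, 5.35 and 1.14 CPM in GFP+ and 56.8, 72.4, 45.7 and 34.9 CPM in tdTomato+ cells (log2 FC −3.93, SE 0.27, edgeR adjusted p = 3.5e-07). Neither pair of ranges overlaps. Of 10 genes of the family 5 were higher and 1 lower in GFP+ cells (median 0.99), including the binding protein *Igfbp6* (343 ± 86.6 against 30.7 ± 21.6 CPM, log2 FC 3.69). The number higher was 3 without mouse 3 and 2 without mouse 4, and *Igfbp6* was not called in either fit (edgeR adjusted p up to 0.022). The receptor *Igf1r* did not pass the threshold (131 ± 10.7 against 162 ± 27.96 CPM, adjusted p = 0.059).

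Of 20 Wnt ligands and secreted regulators 18 were tested, and 7 were higher and 0 lower in GFP+ cells (median 2.31). Only 6 were higher without mouse 2 and 5 without mouse 3 or 4, but 10 without the mouse as a block. The antagonist *Sfrp1* led the called genes (99.95 ± 21.9 against 6.597 ± 4.83 CPM, log2 FC 4.10, SE 0.45, edgeR adjusted p = 2.7e-04), with the antagonist *Dkk2* (21.4 ± 14.3 against 2.25 ± 1.91 CPM, log2 FC 3.33). The ligand *Wnt5a* (log2 FC 2.26) and the agonist *Rspo1* (4.59 ± 1.75 against 1.13 ± 0.933 CPM, log2 FC 2.20) were also called, with edgeR adjusted p values up to 0.02 and 0.031 when some mouse was left out. *Sfrp2*, another antagonist, was not called (417 ± 55.7 against 21.7 ± 18.7 CPM, adjusted p = 0.019). *Wnt4*, an epithelial ligand induced by progesterone, was at 1.49 ± 1.597 CPM in GFP+ and 5.99 ± 1.62 CPM in tdTomato+ cells, and did not pass (adjusted p = 0.037).

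For the TGF-β and BMP family, 5 of 20 genes were higher and 5 lower in GFP+ cells, with a median of 0.04. The activin antagonist *Fst* (follistatin) was measured at 179.8, 254, 224 and 167 CPM in GFP+ and 20.4, 3.53, 26.3 and 9.69 CPM in tdTomato+ cells (log2 FC 3.99, SE 0.55, edgeR adjusted p = 0.0015). *Inhba*, which encodes the activin subunit, lay on the other side (5.56 ± 2.300 against 30.4 ± 13.2 CPM, log2 FC −2.44, SE 0.35, edgeR adjusted p = 2.1e-04). *Bmp7* was higher in GFP+ cells (log2 FC 2.76). *Bmp6* (log2 FC −1.62, call lost without mouse 1 or 3, edgeR adjusted p up to 0.02), *Tgfb3* (35.1 ± 4.901 against 82.3 ± 30.03 CPM, log2 FC −1.17) and *Tgfb1* (log2 FC −0.83, call lost without mouse 2, 3 or 4, edgeR adjusted p up to 0.018) were lower. The number lower was 2 without mouse 3, 3 without mouse 2 or 4, and 3 without the mouse as a block, when *Tgfb1* had an edgeR adjusted p of 0.02. *Tgfb2* did not pass the threshold (42.5 ± 9.797 against 39.4 ± 6.92 CPM, adjusted p = 0.7).

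Of 15 chemokines and cytokines, 8 were higher and 1 was lower in GFP+ cells (median 1.52). *Csf1*, the growth factor of macrophages, was measured at 681, 788, 959 and 783 CPM in GFP+ and 100.4, 69.1, 174 and 88.9 CPM in tdTomato+ cells (log2 FC 2.97, SE 0.17, edgeR adjusted p = 4.0e-08). *Il6* was the gene called lower, at 155, 231, 273 and 145 CPM in GFP+ and 578, 1827, 1316 and 1825 CPM in tdTomato+ cells (log2 FC −2.70, SE 0.28, edgeR adjusted p = 4.8e-05), with mouse 1 the lowest tdTomato+ sample. *Cxcl14* (log2 FC 3.75), *Ccl8* (log2 FC 4.25, call lost without mouse 4, edgeR adjusted p up to 0.011), *Ccl2* (1323 ± 455 against 375 ± 102 CPM, log2 FC 1.80) and *Ccl7* (log2 FC 1.52) were higher in GFP+ cells. The number higher was 5 without mouse 4. *Cxcl1* (852 ± 222 against 914 ± 270.3 CPM) and *Cxcl12* (285 ± 109 against 252 ± 81.8 CPM) did not pass the threshold (adjusted p = 0.78 and 0.75).

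Complement genes were higher in GFP+ cells for 6 of 11 and lower for 0 (median 1.85; 4 higher without mouse 1 and 5 without mouse 4). They included *C1ra* (log2 FC 2.34, SE 0.24, edgeR adjusted p = 3.7e-05) and *C1s1* (1084 ± 107 against 364 ± 29.3 CPM, log2 FC 1.57), the proteases of the classical pathway. The inhibitor *Serping1* (1184 ± 152 against 371 ± 74.8 CPM, log2 FC 1.69) was higher as well. *C3*, the central component, was at 5960.0 ± 1788 against 1628 ± 1454 CPM but not called (adjusted p = 0.08).

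Of 20 axon guidance genes, 7 were higher and 3 lower in GFP+ cells (median 0.62). *Slit2*, a repellent ligand, was measured at 261, 275, 273 and 302 CPM in GFP+ and 23.3, 43.9, 54.1 and 21.5 CPM in tdTomato+ cells (log2 FC 3.06, SE 0.26, edgeR adjusted p = 1.1e-05). *Slit3* (823 ± 131 against 219 ± 25.6 CPM, log2 FC 1.90) and *Sema3c* (421 ± 83.7 against 57.98 ± 46.7 CPM, log2 FC 3.24, call lost without mouse 4, edgeR adjusted p up to 0.018) were on the same side. *Sema3f* (log2 FC −2.70) and the netrin receptors *Unc5b* (log2 FC −1.58) and *Unc5c* (log2 FC −2.94) were higher in tdTomato+ cells.

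Of 12 retinoid genes, 5 were higher and 1 was lower in GFP+ cells (median 1.04), with 2 higher and 0 lower without mouse 3 and 3 higher without mouse 4. The binding protein *Crabp1* was detected at 5.59, 15.5, 8.16 and 14.5 CPM in GFP+ cells and at 0, 0, 0.238 and 0 CPM in tdTomato+ cells (edgeR adjusted p = 6.0e-04, call lost without mouse 3, edgeR adjusted p up to 0.011). *Stra6*, the receptor for retinol uptake, was higher as well (log2 FC 4.71). *Rdh10*, which oxidizes retinol, was lower (log2 FC −0.79, call lost without mouse 3, edgeR adjusted p up to 0.011), and not called without the mouse as a block (edgeR adjusted p = 0.037).

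Transcription factors of mesenchyme divided almost evenly. Of 25 tested, 8 were higher and 11 lower in GFP+ cells, with a median of 0.13. *Alx4*, a homeodomain factor of mammary stroma, was at 34.00, 33.3, 50.3 and 33.5 CPM in GFP+ and 0.342, 1.31, 2.26 and 1.44 CPM in tdTomato+ cells (log2 FC 4.85, SE 0.51, edgeR adjusted p = 1.6e-04). *Prrx2* (log2 FC 3.59), *Osr1* (105 ± 10.7 against 19.4 ± 9.17 CPM, log2 FC 2.56), *Gata6* (log2 FC 2.31) and *Twist1* (74.9 ± 15.3 against 16.4 ± 3.46 CPM, log2 FC 2.19) were on the same side. On the tdTomato+ side stood *Heyl*, an effector of Notch (log2 FC −3.99, SE 0.15, edgeR adjusted p = 1.5e-09), and the muscle regulator *Mef2c* (24.7 ± 9.53 against 153 ± 87.9 CPM, log2 FC −2.54). The forkhead factors *Foxs1* (log2 FC −3.42), *Foxf1* (log2 FC −3.29), *Foxc1* (log2 FC −2.63) and *Foxc2* (log2 FC −3.24) and the T-box factors *Tbx3* (log2 FC −1.39) and *Tbx5* (log2 FC −1.73) were lower in GFP+ cells too. Of the 27 *Hox* genes tested, 2 were higher (*Hoxc8* and *Hoxc10*, log2 FC 0.81 and 1.01) and 6 lower (among them *Hoxa3*, *Hoxa5* and *Hoxb4*), and 19 were not called. Over all genes tested 13.3% were called higher and 13.6% lower. With a mouse left out 0 or 1 were higher, and 4, 3, 1 and 2 lower without mice 1, 2, 3 and 4. *Hoxc8* (edgeR adjusted p up to 0.06) and *Hoxc10* (up to 0.034) were also lost under both other scalings, and *Hoxa3* alone of the named lower genes kept its call throughout (log2 FC −1.80, SE 0.22, edgeR adjusted p = 3.1e-05).

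**Figure D3:**
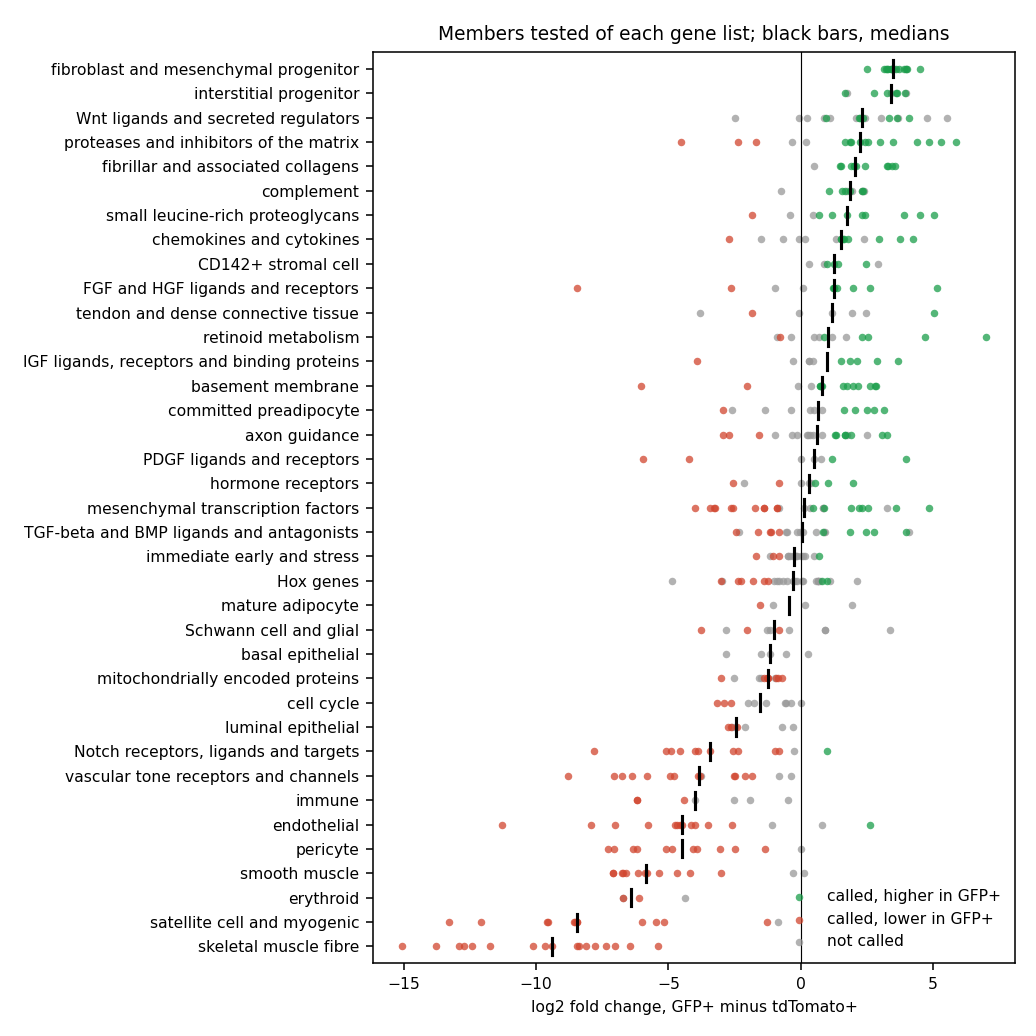
Log2 fold change (GFP+ minus tdTomato+, x axis) of every member tested of 37 gene lists, ordered by their medians (black bars), from −9.42 for skeletal muscle fibre to 3.50 for fibroblast genes. Green and red points were called higher and lower in GFP+ cells, and grey points were not called.

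The tdTomato+ subset was set apart by genes of mural cells. Of 12 pericyte genes 11 were lower in GFP+ cells and 0 higher (median −4.48, beside 0.01 for all genes), the exception being *Pdgfrb*. *Rgs5* (ENSMUSG00000026678.10, chr1:169655501-169695813), a regulator of G-protein signaling that marks pericytes, was measured at 9.29, 14.7, 12.6 and 10.9 CPM in GFP+ cells and 1258, 2189.9, 1511 and 2702 CPM in tdTomato+ cells. The tdTomato+ values were all above the GFP+ values, and the log2 fold change was −7.28 (SE 0.23, edgeR adjusted p = 6.7e-10). *Rgs4* (6.03 ± 2.73 against 475 ± 91.1 CPM, log2 FC −6.33), *Higd1b* (log2 FC −7.05) and the potassium channel subunits *Kcnj8* (6.42 ± 3.89 against 187 ± 77.5 CPM, log2 FC −4.88) and *Abcc9* (104 ± 38.8 against 858 ± 259 CPM, log2 FC −3.06) were lower in GFP+ cells as well. *Cspg4*, which encodes NG2, differed less (16.3 ± 5.03 against 92.04 ± 25.98 CPM, log2 FC −2.49, SE 0.21, edgeR adjusted p = 1.9e-06).

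Of 14 smooth muscle genes 12 were lower in GFP+ cells and 0 higher (median −5.86). *Myh11* (ENSMUSG00000018830.8, chr16:14194535-14291372), the smooth muscle myosin heavy chain, was at 23.6, 39.5, 21.8 and 12.5 CPM in GFP+ and 4582, 3152, 2073 and 1231 CPM in tdTomato+ cells (log2 FC −6.77, SE 0.22, edgeR adjusted p = 7.2e-10). *Acta2*, smooth muscle actin, was at 3.703, 10.8, 18.1 and 5.96 CPM in GFP+ and 1008, 598, 513 and 232 CPM in tdTomato+ cells (log2 FC −5.90, SE 0.59, edgeR adjusted p = 3.3e-04). In both, tdTomato+ cells of mouse 1 were highest and those of mouse 4 lowest, whereas for *Rgs5* mouse 4 was highest and mouse 1 lowest. *Des* (desmin, log2 FC −7.11) and *Casq2* (calsequestrin 2, log2 FC −7.09) had the largest fold changes, both being genes that striated muscle also uses. *Smtn* (89.3 ± 10.3 against 85.8 ± 28.8 CPM) and *Itga8* (50.1 ± 6.92 against 67.00 ± 29.95 CPM) were not called.

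Receptors and channels of vascular tone went with them: 13 of 16 were lower in GFP+ cells and 0 higher (median −3.85). The endothelin receptor *Ednrb* was measured at 1.346, 0.554, 0.772 and 0.327 CPM in GFP+ and 212, 467, 327 and 454 CPM in tdTomato+ cells (log2 FC −8.81, SE 0.42, edgeR adjusted p = 5.7e-07). Its relative *Ednra* was at 35.6 ± 17.9 against 119.9 ± 33.7 CPM (log2 FC −1.85, call lost without mouse 1, 2 or 4, edgeR adjusted p up to 0.023). The cation channel *Trpc6* (log2 FC −6.78, SE 0.51, edgeR adjusted p = 1.4e-05), the vasopressin receptor *Avpr1a* (log2 FC −4.94) and the adrenergic receptor *Adra1a* (log2 FC −5.82) were also lower. The angiotensin receptor *Agtr1a* was not called (23.5 ± 4.64 against 30.4 ± 6.38 CPM, adjusted p = 0.15).

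Notch genes were lower in GFP+ cells for 11 of 13 and higher for 1 (median −3.43). *Notch3*, the receptor of mural cells, was measured at 27.5, 18.3, 27.1 and 16.1 CPM in GFP+ and 723, 917, 725 and 635 CPM in tdTomato+ cells (log2 FC −5.10, SE 0.18, edgeR adjusted p = 8.8e-10). *Notch2* was the gene called higher, at 533, 499.9, 570.2 and 530.2 CPM in GFP+ and 252, 277, 327 and 231 CPM in tdTomato+ cells (log2 FC 0.98, SE 0.11, edgeR adjusted p = 1.7e-05). *Notch1* was lower by less (91.5 ± 4.68 against 182 ± 39.2 CPM, log2 FC −0.96). Transcripts induced by Notch signaling lay on the tdTomato+ side. *Heyl* was at 6.33, 8.102, 6.34 and 8.25 CPM in GFP+ and 118, 123, 104 and 114 CPM in tdTomato+ cells. *Hey2* was at 0.547 ± 0.333 and 16.1 ± 1.83 CPM (log2 FC −4.89), and *Nrarp* at 0.181 ± 0.154 and 41.8 ± 22.3 CPM (log2 FC −7.82). The ligand *Jag1* did not pass the threshold (117 ± 11.7 against 139.6 ± 10.00 CPM, adjusted p = 0.085).

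Skeletal muscle fibre genes had the lowest median of the 37 lists. Every one of the 17 fibre genes on the list was lower in GFP+ cells, with a median of −9.42. *Acta1* (ENSMUSG00000031972.5, chr8:123891769-123894751), skeletal actin, was measured at 0.875, 0.0692, 0.165 and 0 CPM in GFP+ and 3069.6, 3169.8, 872 and 475 CPM in tdTomato+ cells (log2 FC −12.71, SE 0.79, edgeR adjusted p = 2.0e-05). For the fast troponin *Tnnc2* the GFP+ libraries held 1 count in all against 42442 in tdTomato+ libraries, a depth-scaled ratio of 48865 whose 95% exact binomial interval starts at 8769.9 and covers counting error only. The summed list was 39.2, 36.98, 31.9 and 43.2 CPM in GFP+ and 18476, 22788, 7613 and 4612 CPM in tdTomato+ cells, with mice 1 and 2 high and mice 3 and 4 low. All 17 calls held in the 4 fits that left out a mouse.

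Genes of satellite cells, the progenitors of muscle fibres, were also on the tdTomato+ side, and their sum was steadier between mice. Of 13 satellite cell and myogenic genes 12 were lower in GFP+ cells and 0 higher (median −8.44, or −6.02 with the 3 genes that had 0 counts in every GFP+ library set to their bounds). *Pax7*, which specifies satellite cells, was at 132, 131, 91.2 and 64.7 CPM in tdTomato+ cells, with 1 count over all GFP+ libraries, a ratio of 6208 with an interval from 1114 upward. *Myf5*, the earliest myogenic factor, was at 66.3, 52.8, 103 and 73.8 CPM in tdTomato+ cells and had 0 counts in GFP+ cells, so it was at least 361-fold higher against a floor of 3 counts per library (0.205 CPM on average). *Myog*, which marks differentiating myoblasts, was at 9.75, 8.87, 2.85 and 2.15 CPM in tdTomato+ cells (5.91 ± 3.96 CPM), with mice 1 and 2 high as for the fibre genes. With 0 counts in GFP+ cells, it was at least 28.8-fold higher by the same floor. The satellite cell sum was 98.8 to 145 CPM in GFP+ and 900.4 to 1157 CPM in tdTomato+ libraries, the latter a narrower range than the 4612 to 22788 CPM of the fibre genes. Almost none of the GFP+ sum was *Pax7* (mean 0.0204 CPM), *Myf5* (0), *Myog* (0) or *Fgfr4* (0.275 CPM). It came from other members of the list, so the sums understate how far these genes differed. *Ncam1*, carried by satellite cells and by Schwann cells, was at 5.18, 9.42, 10.6 and 5.47 CPM in GFP+ and 106, 128, 105 and 75.6 CPM in tdTomato+ cells (log2 FC −3.79, SE 0.17, edgeR adjusted p = 5.9e-09).

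Promoters of the contractile genes are shown for those with a CArG box, the motif bound by serum response factor, since both smooth and skeletal muscle genes were lower in GFP+ cells. In RefSeq promoters of GRCm38.p6, from 250 bases before to 50 after a gene's start and on both strands, a CArG box was found for 1 of 11 smooth muscle genes matched and 2 of 13 fibre genes matched, beside 1.81% of all 27025 genes with a promoter. It was present in the promoters of 2.80% of the matched genes called lower in GFP+ cells, 0.851% of those called higher and 1.56% of all genes tested. In the pericyte list, also lower in GFP+ cells, it was found for 0 of 8 genes matched, and in the fibroblast list for 0 of 10. Whether the motif has a part in the differences was not tested. The motif is in capitals, each sequence runs 5′ to 3′ along its gene, and a match is not a site of binding.
*Myl9* (myosin light chain of smooth muscle, chr2:156775214-156775513, plus strand): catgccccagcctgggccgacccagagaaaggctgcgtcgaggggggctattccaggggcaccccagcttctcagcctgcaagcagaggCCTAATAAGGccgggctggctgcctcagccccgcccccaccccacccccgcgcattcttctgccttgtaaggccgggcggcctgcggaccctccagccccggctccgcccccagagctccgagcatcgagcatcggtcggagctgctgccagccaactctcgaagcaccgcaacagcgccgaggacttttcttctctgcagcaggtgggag
*Acta1* (chr8:123894726-123895025, minus strand): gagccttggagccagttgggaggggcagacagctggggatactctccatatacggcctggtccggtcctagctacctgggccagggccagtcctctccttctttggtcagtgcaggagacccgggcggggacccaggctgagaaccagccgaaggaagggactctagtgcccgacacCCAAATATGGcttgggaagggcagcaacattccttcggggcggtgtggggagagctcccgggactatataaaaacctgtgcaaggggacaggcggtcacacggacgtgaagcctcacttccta
*Myh4* (fast skeletal myosin, chr11:67237562-67237861, plus strand): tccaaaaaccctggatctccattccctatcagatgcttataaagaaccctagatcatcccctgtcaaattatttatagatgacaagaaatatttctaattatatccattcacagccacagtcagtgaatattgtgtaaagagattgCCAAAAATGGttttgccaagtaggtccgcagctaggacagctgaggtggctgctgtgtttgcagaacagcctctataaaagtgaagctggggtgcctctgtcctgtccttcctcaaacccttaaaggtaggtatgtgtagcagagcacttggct
These 3 promoters came from lists with 12 of 14 and 17 of 17 genes lower in GFP+ cells. The direction of their genes was thus set by that choice and says nothing about the motif. *Myl9* was at 26.7 ± 5.97 against 226 ± 89.02 CPM (log2 FC −3.02, SE 0.18, edgeR adjusted p = 6.0e-08), *Acta1* as given above and *Myh4* at 0.413 ± 0.504 against 1560.0 ± 834 CPM (log2 FC −11.75).

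**Figure D4:**
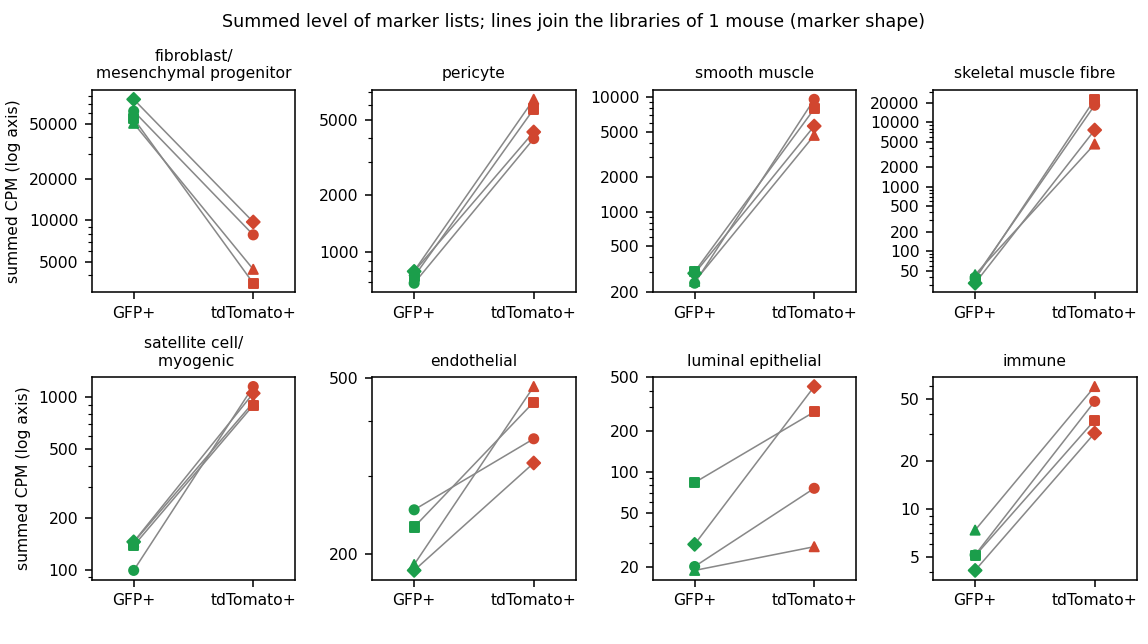
Summed CPM of 8 marker lists (log axis, scaled for each panel) in GFP+ (green) and tdTomato+ (red) cells, with lines joining the libraries of a mouse. All lines rise toward tdTomato+ except for the fibroblast list, the luminal epithelial sum of tdTomato+ cells spans 28.1 to 428 CPM, and the immune sum reaches 30.3 to 59.7 CPM in tdTomato+ cells. Most of the endothelial sum of GFP+ cells is *Tek*.

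Cell types that the sort was meant to remove were scarce but uneven. Endothelial genes summed to 184 to 252 CPM in GFP+ and 321 to 477 CPM in tdTomato+ cells, and 12 of 15 were lower in GFP+ cells and 1 higher. Most of the GFP+ sum (252, 231, 184 and 190 CPM in mice 1 to 4) was *Tek*, given below, so the sums understate how far the other members differed. *Pecam1*, which encodes the sorted antigen CD31, was at 0.803 ± 0.396 and 15.5 ± 6.66 CPM (log2 FC −4.16, SE 0.38, edgeR adjusted p = 2.3e-06), and *Cdh5* at 1.997 ± 1.59 and 19.4 ± 8.33 CPM (log2 FC −3.50). *Esam*, a junction protein shared with pericytes, was at 0.539, 1.18, 0.552 and 0.408 CPM in GFP+ and 75.00, 93.5, 77.5 and 103 CPM in tdTomato+ cells (log2 FC −7.01, SE 0.25, edgeR adjusted p = 8.8e-10). *Lyve1*, a marker of lymphatic endothelium and some macrophages, had 0 counts in GFP+ cells and 20.9 ± 13.8 CPM in tdTomato+ cells, at least 102-fold more. *Tek*, which encodes the angiopoietin receptor, was the gene called higher, at 217, 167, 139 and 158 CPM in GFP+ and 52.00, 8.705, 34.4 and 28.7 CPM in tdTomato+ cells (log2 FC 2.64, SE 0.35, edgeR adjusted p = 6.2e-04).

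Immune genes summed to 4.08 to 7.35 CPM in GFP+ and 30.3 to 59.7 CPM in tdTomato+ cells. *Ptprc*, which encodes CD45, was at 0.172 ± 0.292 and 11.9 ± 5.28 CPM (log2 FC −6.19, SE 0.78, edgeR adjusted p = 1.0e-04). In all, 3 of the 7 immune genes tested were lower and 0 higher, and *Adgre1* and *C1qa* had 0 counts in all 8 libraries. Of 4 globin and heme genes tested 2 were lower, with *Hbb-bs* at 0.109 ± 0.132 and 8.196 ± 4.41 CPM. Luminal epithelial genes were uneven between mice: *Krt8* was at 1.88, 19.3, 4.799 and 2.78 CPM in GFP+ and 16.1, 73.01, 114 and 6.64 CPM in tdTomato+ cells, overlapping. *Krt8*, *Krt18* and *Kit*, 3 of 8 luminal genes tested, were called lower in GFP+ cells, but not without the mouse as a block (edgeR adjusted p = 0.05, 0.054 and 0.013). Without mouse 1 only *Kit* was called. Of 5 basal epithelial genes tested 0 were called by edgeR, DESeq2 or limma-voom, 1 had an unadjusted p under 0.05, and *Krt14* was at 0.129 ± 0.143 against 1.45 ± 1.89 CPM.

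Schwann cell genes had 3 called lower of 10 tested, beside 13.6% of all genes tested. They were *Ncam1*, *Pmp22* (88.8 ± 11.9 against 158 ± 30.4 CPM, log2 FC −0.82) and *Erbb3* (log2 FC −2.02). The call of *Erbb3* was lost without mouse 1 or 3 (edgeR adjusted p up to 0.028) and without the mouse as a block (0.024). *Sox10*, the defining factor of glia, was at 0.559 ± 0.586 and 3.31 ± 1.97 CPM and not called (adjusted p = 0.032). Of 7 genes of tendon and dense connective tissue tested, *Kera* was higher and *Fmod* lower, and *Scx*, which specifies tendon, stayed at 0.0546 ± 0.07697 against 0.892 ± 0.5496 CPM. The part that any of these cells had in the other results was not tested.

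Of 9 hormone receptors tested, 3 were higher and 2 lower in GFP+ cells (median 0.33). *Esr2*, which encodes estrogen receptor β, was not tested, at 0.138 ± 0.1596 against 0.112 ± 0.224 CPM. The estrogen receptor *Esr1* was at 112, 122, 83.96 and 63.02 CPM in GFP+ and 76.2, 74.1, 81.6 and 63.4 CPM in tdTomato+ cells, with overlap and an edgeR adjusted p of 0.094. The progesterone receptor *Pgr* was at 11.5 ± 7.02 against 19.8 ± 22.4 CPM (log2 FC 0.00, SE 0.48, edgeR adjusted p = 0.99). The receptors of growth hormone (*Ghr*, log2 FC 1.02) and thyroid hormone (*Thra*, log2 FC 0.52, call lost without mouse 2, 3 or 4, edgeR adjusted p up to 0.031) were higher in GFP+ cells. Those of vitamin D (*Vdr*, 4.62 ± 2.68 against 25.99 ± 10.4 CPM, log2 FC −2.57) and mineralocorticoids (*Nr3c2*, log2 FC −0.81, call lost without mouse 1 or 3, edgeR adjusted p up to 0.016) were lower.

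Of 16 immediate early and stress genes tested, which respond to tissue dissociation, 1 was higher and 3 were lower in GFP+ cells (median −0.25; 4 lower without mouse 2 and 2 without another mouse). Over all genes tested the shares were 13.3% and 13.6%. The sums were 7216 to 12296 CPM in GFP+ and 9649.9 to 13226 CPM in tdTomato+ cells, overlapping through mouse 2 of GFP+. *Fos* (848 ± 243 against 927 ± 228 CPM) and *Fosb* (733 ± 118 against 729 ± 102 CPM) were not called. *Nr4a1* was lower in GFP+ cells (249 ± 89.7 against 783 ± 91.4 CPM, log2 FC −1.71, SE 0.14, edgeR adjusted p = 7.6e-07) and *Dusp1* higher (log2 FC 0.67). Of 10 cell cycle genes 3 were lower in GFP+ cells, beside 13.6% of all genes tested. *Mki67* was at 1.21, 9.63, 4.96 and 2.37 CPM in GFP+ and 13.4, 85.2, 24.9 and 16.9 CPM in tdTomato+ cells (log2 FC −2.90, SE 0.24, edgeR adjusted p = 7.6e-07). Mouse 2 was highest on both sides, and *Top2a* was not called without mouse 2 or without the mouse as a block (edgeR adjusted p = 0.02 and 0.046). Of 12 mitochondrially encoded protein genes tested 8 were lower in GFP+ cells and 0 higher, with *mt-Cytb* at 768 ± 30.6 and 2045 ± 434 CPM (log2 FC −1.39).

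Among genes outside the lists, the largest differences toward GFP+ cells included *Scg3*, a secretogranin of secretory granules, at 231, 517, 531 and 295 CPM in GFP+ and 15.4, 16.2, 18.97 and 6.37 CPM in tdTomato+ cells (log2 FC 4.79, SE 0.36, edgeR adjusted p = 1.7e-05). The complement component *Hc* was also among them (log2 FC 5.43, call lost without mouse 1, 2 or 4, edgeR adjusted p up to 0.022). Among genes with at least 20 CPM in both subsets, the 6 with the largest differences toward GFP+ cells included *Mmp3*, *Lum* and *Mmp2*, given above. *Hmcn1* (hemicentin 1, log2 FC 4.44, call lost without mouse 1, 2 or 4, edgeR adjusted p up to 0.012) was also among them, as was *Ace*, the angiotensin-converting enzyme (808 ± 72.9 against 52.9 ± 39.5 CPM, log2 FC 4.26, SE 0.51, edgeR adjusted p = 6.7e-04). Fibronectin, *Fn1*, was at 9341, 8259, 17488 and 6947 CPM in GFP+ and 1284, 165, 1502 and 332 CPM in tdTomato+ cells (log2 FC 4.09). Toward tdTomato+ cells the same rule gave *Synpo2*, an actin-bundling protein of contractile cells (15.8, 30.1, 25.8 and 20.3 against 1159, 1998, 1394 and 2053 CPM, log2 FC −6.16, SE 0.20, edgeR adjusted p = 6.7e-10), *Adamts9* (log2 FC −4.75), *Rgs16* (log2 FC −4.55) and dystrophin *Dmd* (log2 FC −4.50). Of these, *Synpo2* is a member of the smooth muscle list and was counted there. The muscle genes *Mybpc1*, *Pgam2* and *Myoz1* had 0 counts in GFP+ cells and were at least 516, 429.7 and 289.9-fold higher in tdTomato+ cells.

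Levels of different genes were ranked by counts per kilobase of exon, scaled to the same total in every library (TPM). Among nuclear protein-coding genes, *Gsn* (gelsolin, an actin-severing protein) ranked highest in GFP+ cells at 6613 ± 1537, followed by *Col3a1* at 2282 ± 1433 and *Col1a1* at 1780.2 ± 938, of which *Col3a1* and *Col1a1* differed by less than their SD. In tdTomato+ cells *Acta1* (1283 ± 1047), the chaperone *Hsp90ab1* (1155 ± 320.1) and *Tnnc2* (1123 ± 694) ranked highest and did not differ beyond their spread. *Ccl11*, the eosinophil chemokine eotaxin, followed at 1064 ± 795 against 639.7 ± 175 in GFP+ cells. Noncoding RNAs lay above all of these, led by the RNA annotated as *Gm23935* at 435234 ± 136844 in GFP+ and 533081 ± 124380.0 in tdTomato+ cells on the same scale.

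The same comparison in the 3 mice treated with E+P, which share no sample with the untreated mice, was used to ask where the difference of the subsets depended on hormones. Of the 4789 genes called in untreated mice, 4586 (95.8%) lay on the same side in 3 of 3 treated mice. The same share over all genes tested was not determined, so this figure has no background beside it. The difference itself differed between treatments for 13 of 17783 genes (0.0731%) at an edgeR adjusted p under 0.01, in 12 of them with a lower value in untreated mice, and 1821 genes had an unadjusted p under 0.05. The number called was 5, 20, 10 and 24 without untreated mouse 1, 2, 3 and 4, and 8 without the mouse as a block.

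*Nrk*, a kinase known from placenta, was at 9.36, 6.79, 6.23 and 3.102 CPM in GFP+ and 4.79, 2.55, 4.04 and 3.77 CPM in tdTomato+ cells of untreated mice. In treated mice it was at 66.5 ± 14.2 and 1.41 ± 0.306 CPM (SD, n = 3), and the log2 fold change was 0.70 without and 5.55 with hormones, a difference of −4.85 (SE 0.38, edgeR adjusted p = 1.7e-04). *Ngfr*, the low-affinity neurotrophin receptor, was at −0.99 in untreated mice (call lost without mouse 1, 2 or 4, edgeR adjusted p up to 0.041, and 0.082 without the mouse as a block) and at 2.53 in treated mice on the log2 scale. Its levels were 5.95 ± 3.69 against 11.1 ± 4.01 CPM in untreated and 212 ± 7.74 against 37.5 ± 10.01 CPM in treated mice. *Heph*, a ferroxidase of iron export, was higher in GFP+ cells in both, by 2.28 and 4.85, as were *Col15a1* (log2 FC 2.76 and 5.15) and *Col1a1* (log2 FC 3.30 and 4.82). *Mgp*, the matrix Gla protein, was not called in untreated mice (66.4 ± 29.9 against 53.2 ± 23.9 CPM) and differed by 2.43 in treated mice. *Tenm4*, a teneurin of cell contacts, and the receptor kinase gene *Grk3* were lower in GFP+ cells of untreated mice at −5.02 and −3.95 on the log2 scale, and stood at −1.15 and −1.17 in treated mice. *Pdk4*, a kinase that restrains glucose oxidation, was the gene with a higher value in untreated mice, at −1.70 without and −3.73 with hormones.

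**Figure D5:**
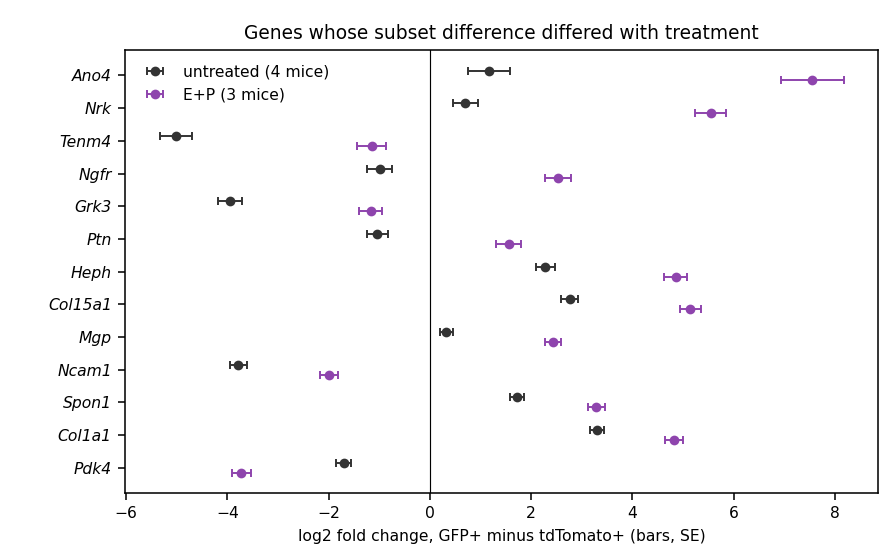
Log2 fold change of GFP+ minus tdTomato+ stroma (x axis, bars are standard errors) for the 13 genes whose difference depended on treatment, in untreated mice (black, n = 4) and E+P-treated mice (purple, n = 3). For 12 genes, from *Ano4* to *Col1a1*, the purple point lies to the right of the black point, and for *Pdk4* to the left, at −3.73 beside −1.70.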

How the data were processed

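RNA of sorted mammary cells was sequenced from SMARTer stranded pico-input libraries after depletion of ribosomal RNA. By the paper's methods, RNA quality varied widely between samples and fragmentation was adapted for poorer RNA. RNA quality was not compared between the subsets here, and its part in the results was not tested. The authors aligned reads with STAR 2.5.2a to GRCm38.p5, per the submitters' processing notes, and deposited raw counts per gene for 28 libraries. The strand setting of the counting is not given in the sources used here, so antisense and overlapping genes may share reads. Of 50600 genes 50376 were matched to GENCODE M21 by stable ID, for type and position. The groups were taken from the labels. Libraries were paired because the labels tie both subsets to 1 mouse. As a check, the deviations of libraries of the same mouse from their group means correlated at 0.0417 to 0.131 and those of different mice at −0.123 to 0.0501. No 2 libraries held identical values.

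The 14 stromal libraries were fitted in edgeR 4.0.16 (R 4.3.3; robust quasi-likelihood test, TMM, filterByExpr), with the mouse as a block and separate GFP effects in untreated and E+P mice. Genes were called at a Benjamini-Hochberg adjusted p under 0.01 over all 17783 tested, the threshold the authors used. CPM are means over libraries, and fold changes come from the fit, so that for genes with a few counts they depend on its prior count. On counts simulated for this comparison (17111 genes), 27.3% of 2-fold (15 of 55), 62.2% of 4-fold (46 of 74) and 76.1% of 8-fold changes (51 of 67) were called, and 7 of 16915 unchanged genes. Far fewer genes were changed there than the 4789 called in the data. The adjusted threshold was therefore stricter, and these shares do not carry over to the data. Alternatives were other scalings, filters, thresholds and libraries, DESeq2 1.42.0, limma-voom (limma 3.58.1) and leaving out each untreated mouse.

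The comparison and the gene lists were chosen with earlier results of these data known. Genes were named by rule: *Pdgfra*; of each list the leading 2 symbols and up to 3 called members per direction with the largest fold change, the same side in 4 of 4 mice and at least 5 CPM; over all genes the 8 largest per direction at 20 CPM or more, and the 6 largest with 20 CPM in both subsets; the 8 highest levels per kilobase; and 5 per direction of the treatment difference. Other list members and treatment genes, and the promoters of *Acta1* and *Myh4*, were added after their values were seen. Binomial intervals and the floor of 3 counts cover counting error only. Some genes are not reported here.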

Additional observations from a re-analysis of the deposited data

Results flagged for a closer look

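Each mouse gave 1 sample to each subset, so that a sample far from the other 3 of its subset can be looked for by Dixon's criterion. Of 420 groups of 4 samples examined, 24 held such a sample, 17 in GFP+ and 7 in tdTomato+ cells. Chance gives about 1 in 20, and the total is near that share. The flagged values are therefore listed for a closer look and are not read as traits of a mouse. Groups that share genes are not independent. Mouse 2 supplied 12 of the 24, mouse 3 supplied 7, mouse 4 supplied 3 and mouse 1 supplied 2.

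In GFP+ cells of mouse 2 the high values were those of the glial and epithelial receptor gene *Erbb3* (7.41 CPM), *Krt8* (19.3 CPM), *Kit* (7.96 CPM), *Plin1* (2.56 CPM), *Dkk2* (42.7 CPM), *Slit3* (1018 CPM), *Hoxc8* (27.4 CPM) and *Fosb* (907 CPM), together with the luminal epithelial sum (83.6 CPM) and the sum of mesenchymal transcription factors (1659 CPM). *Notch1* was low there (84.5 CPM), and in tdTomato+ cells of the same mouse *Mki67* was high (85.2 CPM). *Krt8* and *Kit* are themselves members of the luminal epithelial list.

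In mouse 3, the flagged values of GFP+ cells were high *Serpinb2* (40.05 CPM) and *Alx4* (50.3 CPM). Those of its tdTomato+ cells were high *F3* (83.5 CPM), *Wnt4* (8.38 CPM), *Hc* (38.2 CPM), *Hmcn1* (47.7 CPM) and a high basement membrane sum (7531 CPM). In mouse 4, *Cd68* (5.80 CPM) and *mt-Nd3* (3.18 CPM) were high in GFP+ cells and the noncoding RNA *Gm24270* was low in tdTomato+ cells (1029 CPM). In mouse 1, *Pdk4* was high (35.01 CPM) and the satellite cell and myogenic sum low (98.8 CPM) in GFP+ cells.

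The difference of the subsets differed between untreated and E+P-treated mice for 8 of the genes named by rule, by the interaction term of the edgeR quasi-likelihood test. On the log2 scale, untreated minus treated, it was −4.85 for *Nrk*, −3.53 for *Ngfr*, −2.57 for *Heph*, −2.39 for *Col15a1*, −2.10 for *Mgp*, −1.79 for *Ncam1*, −1.52 for *Col1a1* and 2.02 for *Pdk4*. *Nrk* and *Mgp* were not called between the subsets of untreated mice.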

How the results depend on the processing

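The number of genes called between the subsets stayed within 1.5 times of 4789 under all alternatives but the test against a 2-fold difference, which called 1697 (665 higher, 1032 lower in GFP+ cells). Without the mouse as a replicate block it was 5060, in the 8 untreated libraries alone 3909 with and 3920 without the block, and 3754 to 4008 when an untreated mouse was left out. By DESeq2 it was 5744 and by limma-voom 5255. Scaling by library size moved the median of all genes to −0.08 and the share of calls that were higher from 49.5% to 43.9%. The number of genes whose difference depended on treatment, 13, was 69 at an adjusted p under 0.05, 8 without the replicate block, 29 by limma-voom and 5 to 24 with an untreated mouse left out, and the causes were not tested. Of 2645 values of single genes under an alternative, 2443 kept direction and call, 181 lost the call, 21 gained it and 0 changed direction. Calls lost without the block were those of *Erbb3*, *Krt8*, *Krt18*, *Kit*, *Tgfb1*, *Igfbp2*, *Rdh10*, *Atf3*, *Top2a*, *mt-Nd3*, *Ngfr* and *Mir6236*. With 4 mice, changes of 2-fold were mostly missed in simulated data, though with far fewer changed genes than here. A gene that was not called may still differ.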
